A study of Cervus nippon with 4 samples.

Results

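The testis transcriptome of the aged Sika Deer (Cervus nippon) was compared with that of the adult, using the 10-year library Tst_4 and the 5-year library Tst_3. The comparison took every gene with an FPKM above 5 in at least 1 of these 2 libraries, which gave 26859 genes of the 629520 identifiers listed over the 4 ages of the series. FPKM, fragments per kilobase of gene scaled to the mapped fragments, is a level per length and per library size, and a gene missing from a library's list was set to 0. Tst_3 was the adult group and Tst_4 the aged group, and the juvenile library Tst_1 at 1 year and the adolescence library Tst_2 at 3 years served as reference levels. All animals were of the Shuangyang breed and no treatment was named, and each mRNA library was made from the testis RNA of 3 pooled animals. With 1 library a side, the spread between animals is unknown for every value below, no test was run, and age cannot be told apart from differences between the animals or the libraries.

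The testis holds the seminiferous tubules, in which germ cells pass from spermatogonia through meiosis to sperm with the support of Sertoli cells, and the interstitial tissue, in which Leydig cells make testosterone. Deer are seasonal breeders, and their testes grow and shrink over the year with the rut. The season in which the animals were slaughtered is not given in the sources used here. In whole tissue, fewer cells of a type and less RNA per cell cannot be told apart. The identifiers come without gene symbols or sequences, so the tissue could not be checked against its marker genes, and no gene family or pathway could be described.

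The 2 libraries listed a similar number of these genes. Tst_3 listed 26028 of them and Tst_4 26078, whereas 781 were at 0 in Tst_4 and 831 at 0 in Tst_3. An FPKM above 5 was reached by 23472 genes in Tst_3 and 22658 in Tst_4. Together the genes held 73.8% of all FPKM in Tst_3 and 77.8% in Tst_4, so the aged library had a little more of its signal in them. Their median FPKM was 9.55 in Tst_3 and 9.28 in Tst_4, near the 9.63 of Tst_2 and above the 4.69 of Tst_1. Tst_1 and Tst_2 had no part in the filter.

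Most genes were at similar levels in the adult and the aged testis. The log2 ratio of Tst_4 to Tst_3, with 0.1 FPKM added to each value, lay within 1.2-fold for 41.3% of the genes, within 1.5-fold for 69.2% and within 2-fold for 82.6%. A gene was called higher or lower when its ratio exceeded 2-fold, a log2 ratio above 1 in size. The added 0.1 FPKM makes the ratio too small where values are low. In Tst_4 2429 genes were higher and 2243 lower, that is 9.04% and 8.35% of the genes. Over all 244166 genes above 0.3 FPKM in either library, the corresponding shares were 21.7% and 29.9%, so changes over 2-fold were less frequent among the genes above 5 FPKM. The other pairs of post-juvenile libraries gave close shares under the same rule. In Tst_3 vs. Tst_2 8.29% of 27084 genes were higher and 8.46% lower, and in Tst_4 vs. Tst_2 8.8% of 26843 were higher and 8.61% lower. The step from 5 to 10 years was thus about as large by this count as the step from 3 to 5 years, although the comparisons share libraries and their differences could not be tested.

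**Figure D1:**
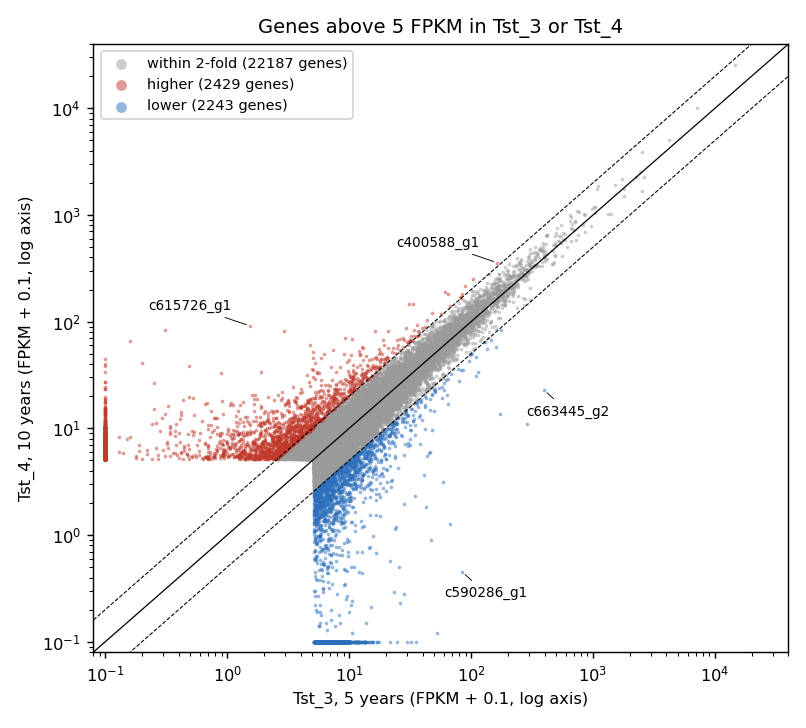
FPKM of each gene in Tst_3 (5 years, x axis) and Tst_4 (10 years, y axis), with 0.1 added and both axes logarithmic. Each point is 1 gene, the solid line marks equal values and the dashed lines 2-fold differences. The 2429 genes higher in Tst_4 and the 2243 lower lie mostly at low FPKM, and the columns of points at the left and lower margins are genes listed at 0 in 1 of the libraries.

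The split between higher and lower genes depended on how the libraries were scaled. On the deposited scale the median log2 ratio was -0.04, and 52.0% of the called genes were higher in Tst_4. A trimmed mean of log2 ratios over all listed genes placed Tst_4 at -0.20 relative to Tst_3, and median-of-ratios factors placed it at -0.29. After division by the trimmed-mean factors the median ratio of the same genes became 0.15, with 3088 higher and 1880 lower, so that 62.2% of those called were higher. With median-of-ratios factors the median was 0.24 and 66.1% were higher. When the filter of 5 FPKM was also set on the scaled values, 68.9% and 74.4% were higher. Neither factor was set on the genes above the filter alone, whose own median of -0.04 lay near the deposited scale. The near balance of the directions was thus seen on the deposited scale and not under these factors. Which scale is right was not tested, and ratios below are on the deposited scale unless another is named.

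The share of called genes fell steeply with expression level, taken as the higher FPKM of the pair. Between 5 and 10 FPKM, 26.2% of 12532 genes were called, and between 10 and 20 FPKM 13.4% of 7039. The share was 7.33% of 4787 genes between 20 and 50 FPKM, 4.68% of 1516 between 50 and 100 FPKM, and 2.82% of 921 between 100 and 500 FPKM. None of the 64 genes above 500 FPKM was called, and their log2 ratios ran from -0.60 to 0.80. The spread of the ratios narrowed in parallel, from an SD of 2.25 across genes in the lowest class to 0.33 in the highest. In the lowest class 740 genes were at 0 in Tst_3 and 722 at 0 in Tst_4, and their ratios rest on the added 0.1 FPKM. The quartiles of the log2 ratio were -0.52 and 0.35 in that class and -0.01 and 0.44 in the highest.

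Direction also shifted with level. The lowest class was balanced, with 1628 genes higher and 1655 lower. Among genes above 20 FPKM, 277 were higher and 171 lower in Tst_4, and between 50 and 100 FPKM 48 were higher and 23 lower. With the level taken as the geometric mean of the pair, 117 were higher and 62 lower above 20 FPKM, but 15 and 15 between 50 and 100 FPKM. The median log2 ratio climbed through every class, from -0.12 and -0.06 in the 2 lowest to 0.01, 0.10 and 0.17, and to 0.22 above 500 FPKM. Of the 64 genes in that top class, 47 were above their Tst_3 value. Under the trimmed-mean scaling all class medians were positive, from 0.07 in the lowest class to 0.41 in the highest, so the sign at low levels depended on the scaling. Either scaling shifts all classes nearly alike and so bears on the sign of the medians, not on their rise with level.

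The same medians were computed for the neighbouring pairs. In Tst_3 vs. Tst_2 the median went the opposite way, from 0.01 between 5 and 10 FPKM to -0.20 between 100 and 500 FPKM and -0.37 above 500 FPKM. In Tst_4 vs. Tst_2 it was -0.11 in the lowest class, 0.01 between 100 and 500 FPKM and -0.06 above 500 FPKM. The classes were drawn anew for each pair, so the genes differ between pairs. Above 500 FPKM they were 64 genes in Tst_4 vs. Tst_3, 69 in Tst_3 vs. Tst_2 and 72 in Tst_4 vs. Tst_2. In each pair's own classes above 100 FPKM, the median was thus lower in Tst_3 than in Tst_2 or Tst_4. Between Tst_2 and Tst_4 these medians differed least.

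**Figure D2:**
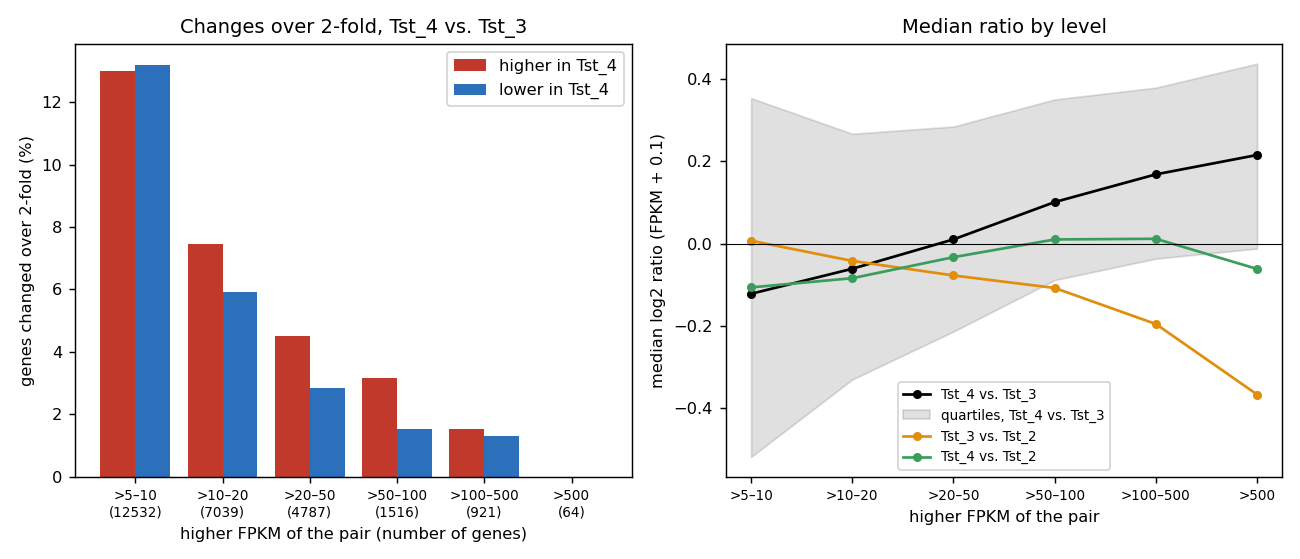
Left, the percentage of genes that differed over 2-fold in Tst_4 vs. Tst_3, higher and lower shown apart, by the higher FPKM of the pair. Right, the median log2 ratio of each level class for 3 pairs of libraries, with a band for the quartiles over genes in Tst_4 vs. Tst_3. The called share falls from 26.2% to 0 with level, and the median of Tst_4 vs. Tst_3 climbs from -0.12 to 0.22 while that of Tst_3 vs. Tst_2 falls from 0.01 to -0.37.

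In summed FPKM the gain of the aged library lay in the classes above 20 FPKM. The 64 genes above 500 FPKM held 80787 FPKM in Tst_3 and 101425 in Tst_4, or 9.85% and 12.1% of each library. The class between 100 and 500 FPKM went from 142993 to 159246 FPKM, and the class between 5 and 10 FPKM from 73649 to 69887. The gene with the highest FPKM was the same in both libraries, at 14666 FPKM in the adult and 25478 in the aged testis, a log2 ratio of 0.80. It alone made up 24.4% of the net gain of 44363 FPKM over all the genes. Without it the class above 500 FPKM gained 9826 FPKM in place of 20638, less than the 16254 of the class between 100 and 500 FPKM. The called genes carried little of the signal, since the 2429 higher genes summed to 7975 FPKM in Tst_3 and 30358 in Tst_4, and the 2243 lower genes to 24524 and 5950.

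Individual genes, 4 in all, were named by a fixed rule, taking in each direction the greatest ratio among genes above 60 FPKM in the higher and above 0.3 FPKM in the lower library, and the greatest difference in FPKM among called genes. Gene c615726_g1 was listed at 0 at 1 year, and its FPKM was 48.25 at 3 years, 1.43 at 5 years and 91.3 at 10 years. Its log2 ratio in Tst_4 vs. Tst_3 was 5.90, the greatest rise under the rule, yet against Tst_2 it was 0.92. The high value at 10 years was therefore within 2-fold of that at 3 years, and among the post-juvenile libraries the adult one stood apart.

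Gene c400588_g1 had the greatest FPKM gain of the called genes. It was at 0 in the 1-year library and reached 237 FPKM at 3 years, 163 at 5 years and 357 at 10 years. The log2 ratio in Tst_4 vs. Tst_3 was 1.13. Its 3-year level lay between the 5-year and the 10-year level, within 2-fold of both.

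Gene c590286_g1 stood at 0.15 FPKM at 1 year, 0.76 at 3 years, 84.75 at 5 years and 0.35 at 10 years. Its log2 ratio of -7.56 in Tst_4 vs. Tst_3 was the greatest fall under the rule. The gene was abundant in the adult library alone, and in the other 3 libraries its FPKM stayed below 1.

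Gene c663445_g2 had the greatest FPKM loss and followed another course. It had 1.65 FPKM at 1 year, 1209 at 3 years, 398 at 5 years and 22.6 at 10 years. Among all genes it ranked 17 in Tst_2, 76 in Tst_3 and 5829 in Tst_4. Its level thus fell over 2-fold at each step after 3 years. The only other gene of the same identifier cluster, that is, with the same number before the letter g, had an FPKM of 2.34, 683, 172 and 13.4 in the libraries from Tst_1 to Tst_4. Another gene, singled out after its values were seen, had 1.46, 689, 290 and 11.0. These 3 had the greatest falls among the genes above 100 FPKM, with log2 ratios of -4.13, -3.67 and -4.71 in the order given.

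**Figure D3:**
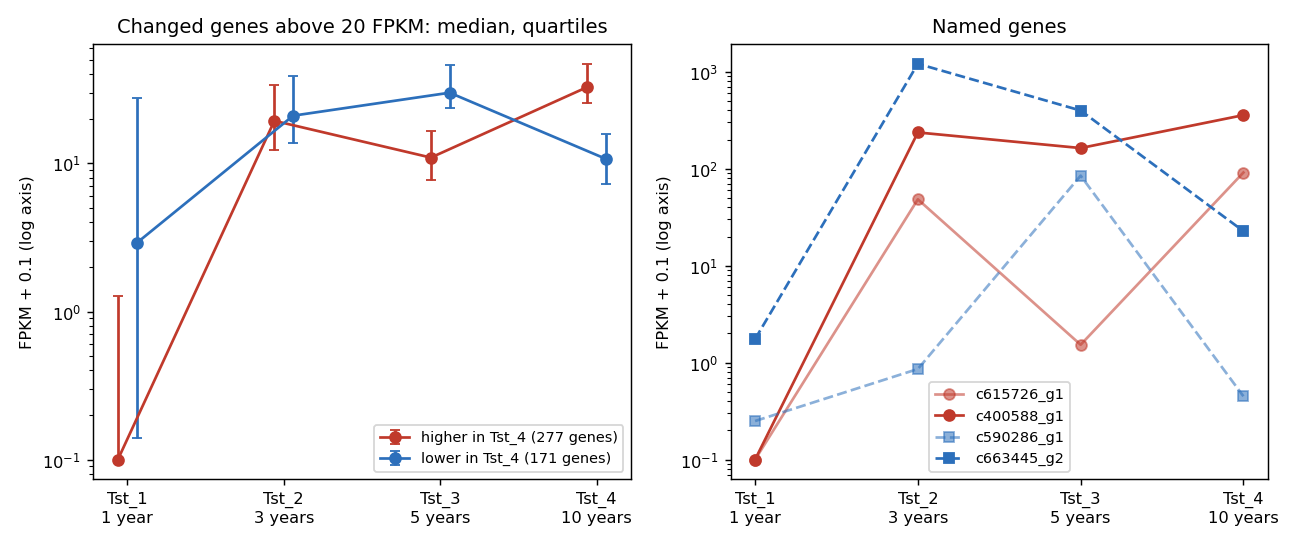
Left, the median FPKM over the 4 ages of the 277 genes higher and the 171 genes lower in Tst_4 vs. Tst_3 among those above 20 FPKM, with bars for the quartiles over genes. Right, the 4 named genes. FPKM has 0.1 added and the axes are logarithmic. In the left panel the median of the genes higher in Tst_4 is lower in Tst_3 than in Tst_2 and is 0 in Tst_1. As these genes were chosen by Tst_3 and Tst_4, nothing is read from that dip. In the right panel c663445_g2 falls from 1209 in Tst_2 to 22.6 in Tst_4.

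Above 100 FPKM only 26 of the genes were called, 14 higher and 12 lower. The 14 higher genes had FPKM of 30.9 to 163 in Tst_3, with a median of 65.5, and of 104 to 357 in Tst_4, with a median of 169. Their Tst_2 values ran from 50.8 to 329, and 13 of the 14 were at less than 50% of their Tst_3 value in Tst_1, 9 of them below 1 FPKM. Low juvenile levels were common at this abundance. Among the 959 genes above 100 FPKM that were within 2-fold, 75.7% were at less than 50% of their Tst_3 value in Tst_1, and 30.4% were below 1 FPKM. The abundance was set by Tst_3 and Tst_4 alone, so part of this follows from the choice of genes. The 12 lower genes were more mixed, with 102 to 398 FPKM in Tst_3, 11.0 to 82.7 in Tst_4 and 0 to 708 in Tst_1. Only 3 of them were below 1 FPKM in Tst_1.

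The difference between the directions at 1 year was also seen above 20 FPKM. Of the 277 higher genes 202 (72.9%) were below 1 FPKM in Tst_1 and 141 were at 0, and the median was 0. Of the 171 lower genes 69 (40.4%) were below 1 FPKM in Tst_1, and the median was 2.8. Among the 6840 genes of this level within 2-fold the share was 24.0%. In Tst_2 the medians were close, at 19.3 FPKM for the higher genes and 20.9 for the lower ones, against 10.8 and 29.9 in Tst_3 and 32.7 and 10.6 in Tst_4. By median, the 3-year level of both groups lay between the 5-year and the 10-year level. Both groups were chosen by the difference between Tst_3 and Tst_4, so a library outside the choice tends to fall between them. Nothing is read from that order.

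How far the differences were a return to the 3-year level was counted gene by gene. A called gene was counted as back at the 3-year level when Tst_4 was within 2-fold of Tst_2 while Tst_3 was not. By this count 660 of the 2429 higher genes (27.2%) and 948 of the 2243 lower genes (42.3%) were back, together 34.4% of the called genes. Conversely, 1045 higher genes (43.0%) and 577 lower genes (25.7%) were new at 10 years, with Tst_3 within 2-fold of Tst_2 and Tst_4 outside it. For 340 and 335 genes both libraries were within 2-fold of Tst_2, and for 384 and 383 neither was. Genes missing from the lists carried much of these counts. Of the 948 lower genes that were back, 522 were at 0 in both Tst_2 and Tst_4, and of the 1045 higher genes that were new, 581 were at 0 in both Tst_2 and Tst_3. Among called genes listed in Tst_2, Tst_3 and Tst_4, a restriction by level and direction chosen after seeing the data, 561 of 1533 higher genes (36.6%) were back and 464 (30.3%) new, and 421 of 1408 lower genes (29.9%) were back and 494 (35.1%) new. The order of the directions was thus the opposite of that over all called genes. As Tst_3 and Tst_4 enter both the call and the class, and each age has 1 library, a value in Tst_3 that was off by chance would also be counted as a return.

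By expression level, the share of higher genes that was back was 23.8% between 5 and 10 FPKM, 35.5% between 10 and 20 FPKM, 30.7% between 20 and 50 FPKM and 33.9% above 50 FPKM. Among lower genes it was 47.6%, 30.7%, 20.6% and 14.3% in the same classes. The lowest class rested largely on genes missing from the lists, since 500 of its 787 lower genes that were back were at 0 in both Tst_2 and Tst_4. Among genes listed in all of Tst_2, Tst_3 and Tst_4 the shares between 5 and 10 FPKM were 35.7% for higher and 31.7% for lower genes, and the fall with level among lower genes began from there. Above 20 FPKM, where few genes were missing from a list, higher genes were more often back at the 3-year level than new, 87 against 68, and lower genes more often new than back, 65 against 33. This order was the same after trimmed-mean scaling, with 172 back and 74 new among 442 higher genes, and 17 back and 54 new among 115 lower genes. Of the genes within 2-fold in Tst_4 vs. Tst_3, 49.9% had a Tst_2 value nearer to Tst_4 than to Tst_3.

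**Figure D4:**
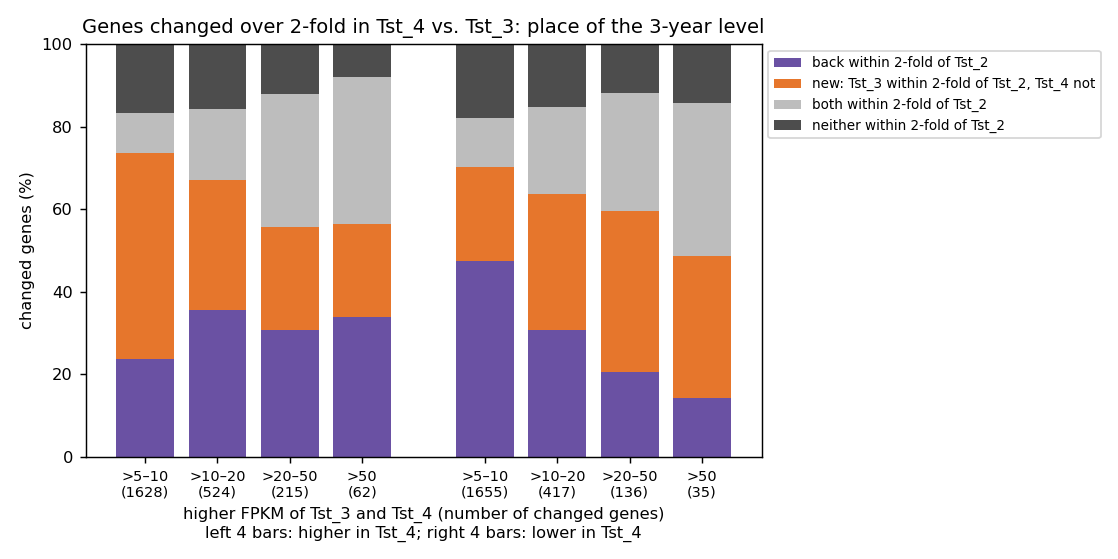
Genes that differed over 2-fold in Tst_4 vs. Tst_3, divided by whether Tst_4, Tst_3, both or neither lay within 2-fold of Tst_2, for 4 level classes. Bars give percentages of the called genes, whose number stands under each bar, with genes higher in Tst_4 on the left and lower on the right. The share back at the 3-year level falls with level among lower genes, from 47.6% to 14.3%, and is 23.8%, 35.5%, 30.7% and 33.9% in the classes of the higher genes. In the lowest class 500 of the 787 lower genes that were back were at 0 in both Tst_2 and Tst_4.

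Over the steps from 3 to 5 and from 5 to 10 years, 20621 of the 26859 genes (76.8%) stayed within 2-fold at both. A fall followed by a rise was found in 906 genes, and a rise followed by a fall in 1301. Another 138 genes rose and 30 fell over 2-fold at both steps. Both steps share the library Tst_3, whose error moves their ratios in opposite directions, so nothing is read from the larger number of reversals. Above 20 FPKM 102 genes fell and then rose, and 47 rose and then fell.

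To see which age stood apart, the genes above 20 FPKM in at least 1 of Tst_2, Tst_3 and Tst_4 were taken, 7912 in all. Tst_3 differed over 2-fold from both others in 178 of them, Tst_4 in 201 and Tst_2 in 237, so Tst_3 stood apart in the fewest genes on the deposited scale. This order turned with the scaling, to 257 for Tst_3, 196 for Tst_4 and 243 for Tst_2 under the trimmed mean, and to 277, 219 and 237 under median-of-ratios factors. On the deposited scale the genes that stood apart in Tst_3 were mostly low there, with 131 below both other libraries and 47 above, while Tst_4 had 103 below and 98 above and Tst_2 112 below and 125 above. Above 60 FPKM Tst_3 was below both others in 22 genes and above both in 4. The excess of low genes in Tst_3 was also present after both scalings, with 228 below and 29 above at 20 FPKM under the trimmed mean and 250 and 27 under median-of-ratios factors. In the wider set above 5 FPKM it was absent, with 1153 below and 1301 above.

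Movement toward the juvenile level was counted in the same way. A called gene moved toward Tst_1 when Tst_1 differed over 2-fold from Tst_3 on the side to which Tst_4 had moved. This held for 1639 of the 2243 lower genes (73.1%) and for 241 of the 2429 higher genes (9.92%), while 195 lower and 1230 higher genes moved away. Of the 1639 lower genes 871 arrived within 2-fold of Tst_1 and 678 fell short of it, and the remaining 90 passed it. Among those that moved toward it 1076 were at 0 in Tst_1, and 644 of these were at 0 in Tst_4 too.

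Among these genes the juvenile level was often low. They were chosen by their FPKM in Tst_3 and Tst_4 and not in Tst_1, so part of this follows from the choice. Among genes within 2-fold in Tst_4 vs. Tst_3, Tst_1 was already over 2-fold below Tst_3 in 50.6% and over 2-fold above it in 12.8%. The lower genes, with 73.1%, exceeded that share, and the higher genes, also with 50.6%, did not. A high value in Tst_3 enters both the fall to Tst_4 and the distance to Tst_1, so the count was repeated with the 1-year level compared with Tst_2. Tst_1 was then over 2-fold below Tst_2 in 41.0% of the lower genes, 60.4% of the higher genes and 48.7% of the genes within 2-fold, which reverses the order of the lower and higher genes. The number moving toward the juvenile level fell from 1880 in both directions together to 1074.

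Above 20 FPKM the picture at 1 year differed less between the references. Of the 277 higher genes 235 (84.8%) had Tst_1 over 2-fold below Tst_3, and 248 (89.5%) over 2-fold below Tst_2. Of the 171 lower genes the numbers were 117 (68.4%) and 99 (57.9%), and of the genes within 2-fold 66.0% and 64.6%. At this level, then, genes higher in the aged testis were more often low in the juvenile testis than genes lower in the aged testis were, by either reference. Only 11 of the 277 higher genes moved toward the 1-year level. Of the 117 lower genes that did so, 27 came within 2-fold of it.

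Genes listed in only 1 of the 2 libraries made up about 1 in 3 of the called genes, and nearly all were at low FPKM. They were 831 (34.2%) of the higher genes and 781 (34.8%) of the lower ones. Their median was 6.43 FPKM in Tst_4 and 6.77 in Tst_3, their maxima were 44.3 and 34.96, and 9 and 5 of them were above 20 FPKM. No fold is given for them, since the other library listed none. Of the 831 genes listed in Tst_4 and not in Tst_3, 543 (65.3%) were listed in neither Tst_1 nor Tst_2, and of the 781 in the reverse case 483 (61.8%). Over all 26859 genes 5386 were at 0 in Tst_1 and 1389 at 0 in Tst_2. Among the genes within 2-fold these shares were 12.4% and 0.75%. No share was counted for other genes of the same low FPKM, so the absences are not read as particular to either library.

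The filter of 5 FPKM lay at a change in the frequency of such genes. Between 4.5 and 5 FPKM, just outside it, 39.1% of 3565 genes were listed in 1 library only, against 17.7% of 2163 between 5 and 5.5 FPKM and 9.37% between 9 and 10 FPKM. The genes called higher made up 23.7% and the genes called lower 27.4% just outside, and 19.7% and 14.9% just inside. Many of these genes shared exactly the same FPKM. Of the 740 genes between 5 and 10 FPKM listed in Tst_4 and not in Tst_3, 148 stood at 5.06 FPKM, and the 740 took 126 different values. The 9317 genes of that range in Tst_4 that were listed in both libraries took all 500 values possible at 2 decimals. The 148 genes at 5.06 FPKM lay just above the filter and are counted among the 831 and the 2429 higher genes. Among the 722 genes of the reverse case, the commonest value was 5.96 FPKM, with 36 genes. Between 5 and 5.5 FPKM, 246 genes were listed in Tst_4 only and 136 in Tst_3 only. Between 4.5 and 5 FPKM the numbers were 665 and 730. Just above its edge the filter thus took in more such genes from Tst_4 than from Tst_3. With a filter of 6 FPKM, chosen after this was seen, 1771 genes were higher and 1638 lower, and the share higher was 52.0% as before.

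Called genes were concentrated among identifiers that stood alone in their cluster. Of the 8367 genes whose cluster held no other identifier in any of the 4 libraries, 17.7% were higher and 15.9% lower. Among the genes listed in only 1 of Tst_3 and Tst_4, 703 of the 831 higher and 647 of the 781 lower ones stood alone. Many calls among single genes thus rest on the added 0.1 FPKM. In clusters of 2 or 3 genes the shares were 6.32% and 5.59%, and in clusters of 4 or more 4.38% and 4.51%. Single genes also had lower FPKM, with a median of 8.69 against 11.46 and 12.45, but the difference was present within each of the 4 level classes from 5 to 100 FPKM. Between 20 and 50 FPKM 16.1% of the single genes were called, against 5.85% in clusters of 2 or 3 and 4.42% in clusters of 4 or more, and between 50 and 100 FPKM the shares were 10.2%, 3.69% and 2.90%. Of the single genes 41.5% were at 0 in Tst_1, against 8.43% in the clusters of 4 or more. The part that gene length and read number have in this was not tested, as the files give neither.

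**Figure D5:**
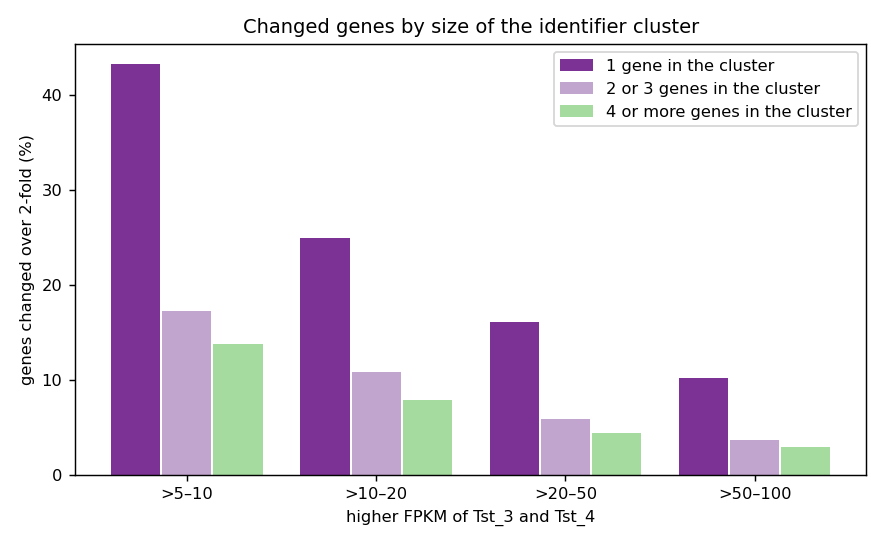
Percentage of genes that differed over 2-fold in Tst_4 vs. Tst_3, by the higher FPKM of the pair (x axis) and by the number of identifiers in the cluster (colours). Single genes have the highest bar in each class, 43.3% between 5 and 10 FPKM and 10.2% between 50 and 100 FPKM.

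Genes of 1 cluster may share sequence, so reads could be divided between them, and opposite changes within a cluster were counted. Of the 346 higher genes with another gene above the filter in their cluster, 71 had a partner that was also higher and 12 a partner that was lower. Of the 354 lower genes with such a partner, 44 had one that was also lower and 11 one that was higher. For 265 and 299 genes no partner was called. An opposite partner was thus found for 3.47% of these higher genes and 3.11% of these lower genes. A partner changed the same way was found for 20.5% and 12.4%. Over all genes in clusters of 2 or 3, 6.32% were higher and 5.59% lower, and in clusters of 4 or more 4.38% and 4.51%. The latter shares count called genes, not genes with a called partner, so they are unlike measures and no comparison is drawn. Whether reads were divided between partners was not tested. When FPKM was summed over clusters, 50.3% of the called clusters were higher.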

How the data were processed

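For each age the authors deposited 1 list of gene identifiers with FPKM values to 2 decimals, from 1 mRNA library of the pooled testis RNA of 3 animals. How reads were aligned and counted, and on which assembly, is not given in the sources used here. Neither read numbers nor gene lengths are listed with the values. The paper reports the clean reads of each library, with more for Tst_4 than for Tst_3. Fragments counted per gene are not listed either, so no counting interval was computed. The most frequent log2 ratio of Tst_3 to Tst_4 among low values (0.25 to 0.35 FPKM) was 0.115, with Tst_3 as the higher library. This ratio runs opposite to those above and gives at most a view of relative depth. Libraries were assigned to ages from the labels and joined on the identifier, with missing genes set to 0.

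Genes above 5 FPKM in Tst_3 or Tst_4 were kept, and a log2 ratio above 1 in size, with 0.1 FPKM added, was called. The genes, the rule and the comparisons were chosen with earlier results of these data known. As no symbols were given, only 2 genes in each direction were named, the one with the greatest log2 ratio among genes above 60 FPKM in the higher and above 0.3 FPKM in the lower library, and the called gene with the greatest FPKM difference. Calls and classes were tried on simulated data with little noise, 8-fold changes and only genes above 0.3 FPKM in all 4 libraries. No model of read number was used, so the trial checks the calculation and not the error of the calls. Scaling factors were an unweighted trimmed mean, without the outer 30% of ratios and 5% of levels on either side, and median-of-ratios factors over genes listed in all 4 libraries. Alternatives covered the added FPKM, the filter, the fold, the scaling, the clusters and the reference library. Calculations used Python 3.11.15, numpy 2.4.6 and pandas 2.3.3, and figures matplotlib 3.10.9.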

Additional observations from a re-analysis of the deposited data

How the results depend on the processing

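No paired analysis was possible because there was 1 library per age, and no library could be left out. The values are the genes called higher, the genes called lower, those back at the Tst_2 level and those moving toward the Tst_1 level, reported as 2429, 2243, 1608 and 1880. At an FPKM above 1 they were 23493, 29834, 22651 and 26391, and without a filter 81858, 113750, 87073 and 91075, as more genes were counted. Fewer genes were counted above 20 FPKM, with 277, 171, 120 and 128, above 5 FPKM in both libraries, with 389, 289, 185 and 187, and among genes listed in the libraries compared, with 1598, 1462, 982 and 662. Only the genes called higher moved by over 1.5 times with the scaling, to 4173 by the trimmed mean and 5131 by median of ratios, where the genes passing the filter were also chosen on the scaled values. A 1.5-fold call gave 4170 higher, 4094 lower and 2842 moving toward Tst_1, and a 4-fold call 1281, 1167, 937 and 1159. Comparing Tst_1 with Tst_2 gave 1074 moving toward it. The SD of the log2 ratios, 1.71 as reported, was 0.98 with a pseudocount of 1, 2.65 above 1 FPKM, 0.72 above 20 FPKM, 0.44 above 5 FPKM in both libraries and 0.82 among genes listed in both. Of the called genes, the percentage higher was 44.1% above 1 FPKM and 41.8% without a filter, against 52.0% as reported and 61.8% above 20 FPKM. With the level taken as the geometric mean of the pair, 117 genes above 20 FPKM were higher and 62 lower. Beyond what the number of genes counted explains, the cause was not tested. The 4 named genes kept their direction and stayed over 2-fold in all 20 values tried. Centring the ratios on the median of each level, chosen after seeing the data, gave 56.6% higher.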
